A study of Mus musculus with 20 samples.

Results

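Pleiotrophin (Ptn) and midkine (Mdk) are the 2 members of a family of secreted growth factors that bind heparin. They were followed together with the cell surface proteins that hold or receive them, the syndecans Sdc1, Sdc2, Sdc3 and Sdc4 and the receptor-type tyrosine phosphatase zeta (Ptprz1), as RNA in 20 libraries of mouse kidney cells sorted magnetically for the surface protein Sca-1. These are 7 of the 47729 genes counted in each library, and each was matched by symbol to 1 gene identifier. The family was chosen from earlier results of the same libraries, in which Ptn lay far lower in roxadustat cells than in control cells at day 21. For that reason the values of Ptn, and the contrast of roxadustat with control at day 21 for every gene, are given here as a description with no test.

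Roxadustat is given against anemia and inhibits the prolyl hydroxylases through which the hypoxia-inducible factor (HIF) is degraded. The day 0 libraries came from freshly isolated cells, 2 from mice that had received intraperitoneal roxadustat at 33 mg/kg for 7 days and 2 from untreated mice. The other libraries came from cells held in culture for 7 or 21 days at 20% oxygen, with 4 libraries of roxadustat-supplemented culture and 4 of control culture at each time. All cells of both arms passed the same Sca-1 sort and are labelled as mesenchymal stem cell-like. Strain, sex and age of the mice, and whether the cultured cells came from injected mice, are not given in the sources used here. Nothing in the labels says that replicates came from separate mice or cultures, so a p below reflects only how much these libraries vary, which may be technical.

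Pleiotrophin and midkine are held at the cell surface by the heparan sulfate and chondroitin sulfate chains of proteoglycans such as the syndecans. Ptprz1, itself a chondroitin sulfate proteoglycan, is a tyrosine phosphatase whose activity falls when pleiotrophin binds it. Syndecans also bind matrix proteins, act beside integrins in cell adhesion and can be cut from the surface by proteases, and Sdc4 is a component of focal adhesions that binds protein kinase C alpha (Prkca). In the kidney, midkine is known from tubule cells, where it responds to injury in mice.

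The libraries held 8502011 to 19903160 counts. Transcripts of Ly6a, the gene of Sca-1, lay at 668 to 715 CPM (counts scaled to library size, with TMM factors between libraries) in roxadustat and 495 to 549.8 CPM in control cells at day 0. In culture they lay at 469 to 528 CPM in roxadustat cells and 158 to 199 CPM in control cells, days 7 and 21 together. The fresh cells were rich in tubule transcripts: the summed level of 10 proximal tubule markers was 22561 to 23657 CPM with roxadustat and 22309 to 22937 CPM in the controls at day 0, and at most 309 CPM in any cultured library. In these bulk libraries fewer cells of a type and less RNA per cell cannot be told apart. The control libraries of day 21 fell into close pairs, replicates 1 and 2 and replicates 3 and 4, and values of both pairs are given for Ptn, Sdc3, Col1a1, Lrp1 and Gpc4.

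The sequence upstream of the RefSeq start (GRCm38.p6) is shown for Ptn, Sdc4 and Ptprz1, whose log2 differences at day 21 were the widest of the 7 genes, because the drug acts on HIF. Of the 7 genes, 5 matched an entry of the promoter table: Ptn, Sdc1, Sdc3, Sdc4 and Ptprz1. Mdk and Sdc2 are named only. The 250 bases before the start were searched on both strands for the core of the HIF binding motif, ACGTG or GCGTG. Of these forms, ACGTG also lies inside the E-box CACGTG. Of 32817 such windows in the table, 38.6% held the core and 6.02% held CACGTG. Capitals mark the core on either strand (CACGC is GCGTG on the other strand), and all sequences read 5′ to 3′ on the strand of the gene. For Ptn, 41 bases that GENCODE M21 places in an exon are left out. The RefSeq start of Sdc4 lies 699 bases inside the gene as GENCODE M21 draws it, and its window overlaps no annotated exon.
Ptn, chr6:36810221-36810429, minus strand: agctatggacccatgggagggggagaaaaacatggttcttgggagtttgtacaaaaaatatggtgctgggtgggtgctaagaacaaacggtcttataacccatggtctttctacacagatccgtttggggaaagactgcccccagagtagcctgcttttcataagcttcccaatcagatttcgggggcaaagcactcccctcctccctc
Sdc4, chr2:164443189-164443438, minus strand: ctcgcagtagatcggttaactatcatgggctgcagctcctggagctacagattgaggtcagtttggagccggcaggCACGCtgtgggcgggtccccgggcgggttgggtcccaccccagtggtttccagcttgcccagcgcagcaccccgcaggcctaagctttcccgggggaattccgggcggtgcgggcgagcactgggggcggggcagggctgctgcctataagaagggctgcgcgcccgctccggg
Ptprz1, chr6:22875252-22875501, plus strand: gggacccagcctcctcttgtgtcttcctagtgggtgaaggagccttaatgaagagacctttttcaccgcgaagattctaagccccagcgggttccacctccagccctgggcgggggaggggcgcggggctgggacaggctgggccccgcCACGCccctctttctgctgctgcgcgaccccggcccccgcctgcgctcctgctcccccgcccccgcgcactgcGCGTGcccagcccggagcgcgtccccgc
The window of Ptn held 0 cores, that of Sdc4 held 1, 170 to 174 bases before the start, and that of Ptprz1 held 2, 97 to 101 and 24 to 28 bases before it. The windows of Sdc1 and Sdc3 held 1 and 2. All of these cores were GCGTG, and CACGTG was in none of the 5 windows. A match describes the letters only, and the lack of one says only that these letters are not in the window.

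Ptn, the gene of pleiotrophin (ENSMUSG00000029838, chromosome 6, 36714929 to 36810220, minus strand), was low in 5 of the 6 groups and abundant in control cells at day 21. At day 21 its level was 2.52, 1.67, 3.38 and 3.05 CPM in the roxadustat libraries, against 387, 377, 301 and 319 CPM in the control libraries. The counts behind these values were 30 to 62 in roxadustat and 3773 to 6301 in control libraries. The groups did not overlap, and the lowest control library lay far above the highest roxadustat library. The level was thus 133-fold lower in roxadustat cells (log2 fold change -7.06 ± 0.14 SE; no test). Against control replicates 1 and 2 alone the log2 fold change was -7.20 and against replicates 3 and 4 alone it was -6.90.

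The difference in Ptn at day 21 was partly present at day 7 and widened with the control arm's steep last step. In control cells Ptn averaged 346 ± 42.3 CPM at day 21 and 2.30 ± 0.415 CPM at day 7 (SD, n = 4 each), a log2 difference of 7.22 ± 0.14. In roxadustat cells it averaged 2.65 ± 0.748 CPM at day 21 and 0.332 ± 0.181 CPM at day 7 (SD, n = 4 each), a log2 difference of 2.90 ± 0.31. In both arms every day 21 library lay above every day 7 library. At day 7 the roxadustat libraries, with 4 to 13 counts each, had 0.192, 0.330, 0.218 and 0.588 CPM, against 1.75, 2.29, 2.43 and 2.74 CPM in control libraries with 27 to 51 counts. These groups did not overlap either, and the level was 6.72-fold lower in roxadustat cells (log2 -2.75 ± 0.31; no test). In fresh cells Ptn was at 2.25 and 2.05 CPM with roxadustat and 1.82 and 2.04 CPM in control libraries, a log2 difference of 0.16 ± 0.34 whose 95% interval, -0.55 to 0.88, holds 0. At day 7 relative to day 0 the log2 difference of Ptn was -2.64 ± 0.39 in roxadustat cells and 0.27 ± 0.28 in control cells (no test). Compared per kilobase of exon, Ptn ranked above the other 6 genes in control cells at day 21 (101 ± 12.3 CPM per kb) and was the lowest but Ptprz1 in roxadustat cells at day 7 (0.0968 ± 0.0527 CPM per kb).

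Fibroblast markers moved with Ptn at day 21. The 10 markers summed to 2518 to 3762 CPM with roxadustat and 47264 to 50521 CPM in control libraries. All 10 were at least 2-fold lower without overlap in roxadustat cells, beside 12.1% of all genes. Collagen I alpha 1 (Col1a1) was at 914 ± 288 CPM with roxadustat and 9926 ± 2884 CPM in control cells, decorin (Dcn) at 21.2 ± 1.32 and 1556 ± 190.4 CPM in the same order (SD, n = 4 each). Col1a1 averaged 7441 CPM in control replicates 1 and 2 and 12412 CPM in replicates 3 and 4. At day 7 the sums were 6538 to 7597 CPM with roxadustat and 10475 to 11072 CPM in control libraries. At day 0 they stood the other way, 1481 to 2476 CPM with roxadustat and 263 to 446 CPM in control libraries, while Ptn differed little. At day 21 relative to day 7 the sum, mostly of Col1a1, Col1a2 and Col3a1, fell in roxadustat cells while Ptn rose. The markers did not move as one: 1 was called higher and 4 lower, beside 28.6% and 32.9% of all genes. On average Lum rose from 1.06 to 5.96 CPM and Col3a1 fell from 3988 to 869.6 CPM. At day 7 relative to day 0 the sum rose in control cells, where Ptn changed little. There 6 markers were called higher and 3 lower, beside 37.0% and 39.5% of all genes. No fibroblast marker was at 0 in any group, and the part of fibroblasts in the level of Ptn was not tested.

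**Figure D1:**
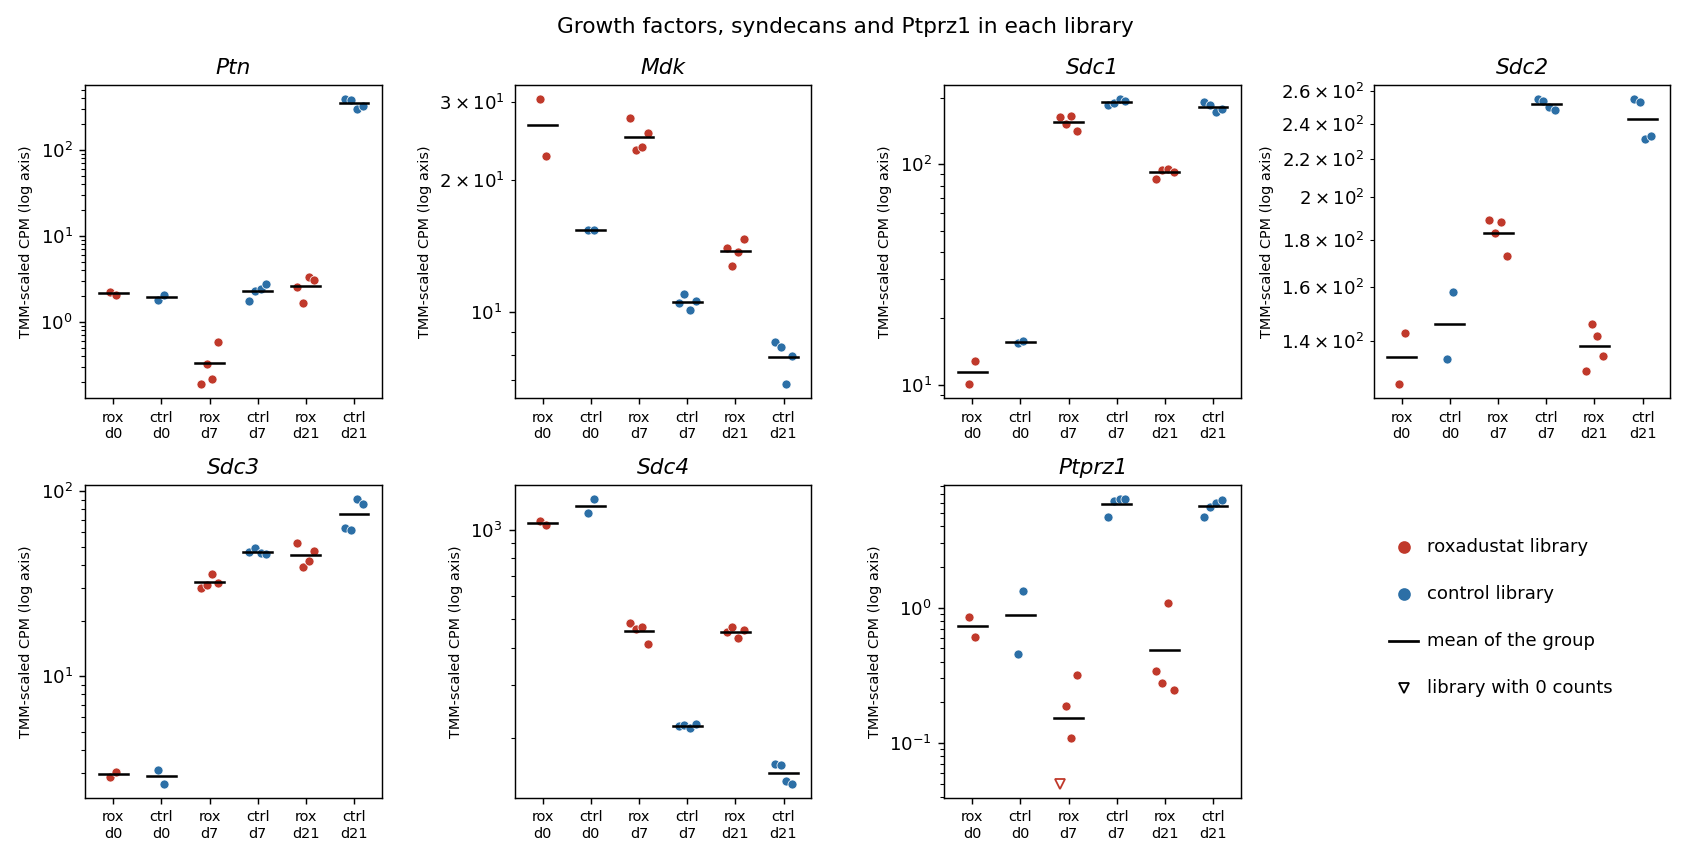
TMM-scaled CPM (log axes) of the 7 genes in each of the 20 libraries, with roxadustat (rox) in red left of control (ctrl) in blue at days 0, 7 and 21 (d0, d7, d21); bars are group means and the open triangle is a library with 0 counts. Ptn stands at 301 to 387 CPM in control libraries of day 21 and at no more than 3.38 CPM in any other library, and Sdc4 and Mdk are higher in roxadustat than in control cultures.

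Mdk (ENSMUSG00000027239, chromosome 2, 91929805 to 91932297, minus strand), the gene of midkine, was higher in roxadustat cells at all 3 times, the opposite direction to that of Ptn in culture. In fresh cells it had 30.5 and 22.7 CPM with roxadustat and 15.4 CPM in each control library, and the groups did not overlap. The 1.73-fold higher level passed the test (log2 0.79 ± 0.12, edgeR adjusted p = 0.000102). It passed at 0.01 as well, but not when the 4 fresh libraries were fitted alone (adjusted p = 0.152). At day 7 it had 27.6, 23.4, 23.7 and 25.6 CPM in roxadustat libraries, against 10.5 ± 0.356 CPM (SD, n = 4), and no less than 10.1 CPM, in control libraries. Every roxadustat library was more than 2-fold above every control library, and the rise passed the test (log2 1.25 ± 0.09, adjusted p = 1.92e-12). At day 21 it averaged 13.8 ± 0.808 CPM with roxadustat and 7.92 ± 0.746 CPM in control cells (SD, n = 4 each) without overlap, a log2 difference of 0.79 ± 0.10 that was not tested.

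Mdk fell in both arms during culture, at different times. In control cells it fell at day 7 relative to day 0 (log2 -0.55 ± 0.11, adjusted p = 7.14e-05) and again at day 21 relative to day 7 (log2 -0.40 ± 0.10, adjusted p = 0.000826). The first of these falls depends on the scaling: with library size alone it was -0.12 with an adjusted p of 0.305. In roxadustat cells the day 7 value did not differ detectably from day 0 (log2 -0.09 ± 0.10, 95% interval -0.29 to 0.12; the sign depends on the scaling and on the fresh library left out), and the fall came at day 21 relative to day 7 (log2 -0.86 ± 0.09, adjusted p = 4.13e-09). The roxadustat effect was larger at day 7 than at day 0 by 0.46 ± 0.15 on the log2 scale (adjusted p = 0.0212), a call lost without either control library of day 0 or without roxadustat replicate 2 of day 0 (adjusted p of 0.0548 to 0.249). Here and below this contrast sets drug in culture against drug injected into mice. Time, route and cell make-up cannot be told apart in it. Of 10 known HIF target genes, 8 were called higher with roxadustat at day 0 and all 10 at day 7, beside 2.73% and 24.1% of all genes. At day 21, 10 were at least 2-fold higher without overlap, beside 14.6% of all genes. With the 4 fresh libraries fitted alone, the day 0 calls over all genes, in either direction, went from 1280 to 23. Their summed level was 2134 to 2142 CPM with roxadustat and 1170.2 to 1187 CPM in the controls at day 0, 4899.7 to 5373 and 788 to 809.6 CPM at day 7, and 3561 to 3937 and 659 to 748 CPM at day 21. Their part in the level of Mdk was not tested.

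Among the syndecans, Sdc4 (ENSMUSG00000017009, chromosome 2, 164424247 to 164443887, minus strand) dominated fresh cells and stayed high in roxadustat culture. Fresh libraries had 1065 and 1034 CPM in the roxadustat and 1134 and 1268 CPM in the control arm. The groups did not overlap, yet the difference did not pass the test (log2 -0.19 ± 0.08, 95% interval -0.36 to -0.03, adjusted p = 0.172). At day 7 the level was 485, 462, 469 and 413 CPM in roxadustat libraries and 218, 219.6, 216 and 222 CPM in control libraries. Every roxadustat library was higher, and the 2.09-fold difference passed the test (log2 1.06 ± 0.06, adjusted p = 1.47e-14). At day 21 it was 451, 469, 433 and 459 CPM in roxadustat libraries and 163, 162, 143 and 140.1 CPM in control libraries, 2.98-fold higher in roxadustat cells without overlap (log2 1.57 ± 0.06; no test).

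Sdc4 fell in both arms on culture, more in control cells. At day 7 relative to day 0 its log2 change was -1.20 ± 0.07 in roxadustat and -2.45 ± 0.07 in control cells, both called, and the difference between the roxadustat effects at day 7 and day 0 was 1.26 ± 0.10 (adjusted p = 1.57e-10). From there the arms parted further. At day 21 relative to day 7 the change was -0.01 ± 0.06 in roxadustat cells, with a 95% interval of -0.13 to 0.11 and a sign that depends on the scaling. In control cells it was -0.53 ± 0.06 (adjusted p = 1.04e-08). General epithelial markers moved with Sdc4. Their sum over 10 genes was 2681 to 2810.1 CPM with roxadustat and 3363 to 3449 CPM in control libraries at day 0, 524 to 539.6 and 229 to 239.5 CPM at day 7, and 457 to 503 and 17.6 to 22.8 CPM at day 21. Of these markers 9 were called higher in roxadustat cells at day 7, beside 24.1% of all genes. Among them the cadherin gene Cdh16 was at 207 ± 8.36 CPM with roxadustat and 84.7 ± 3.75 CPM in control cells (SD, n = 4 each). No epithelial marker was at 0 in any group, and the part of epithelial cells in the level of Sdc4 was not tested.

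**Figure D2:**
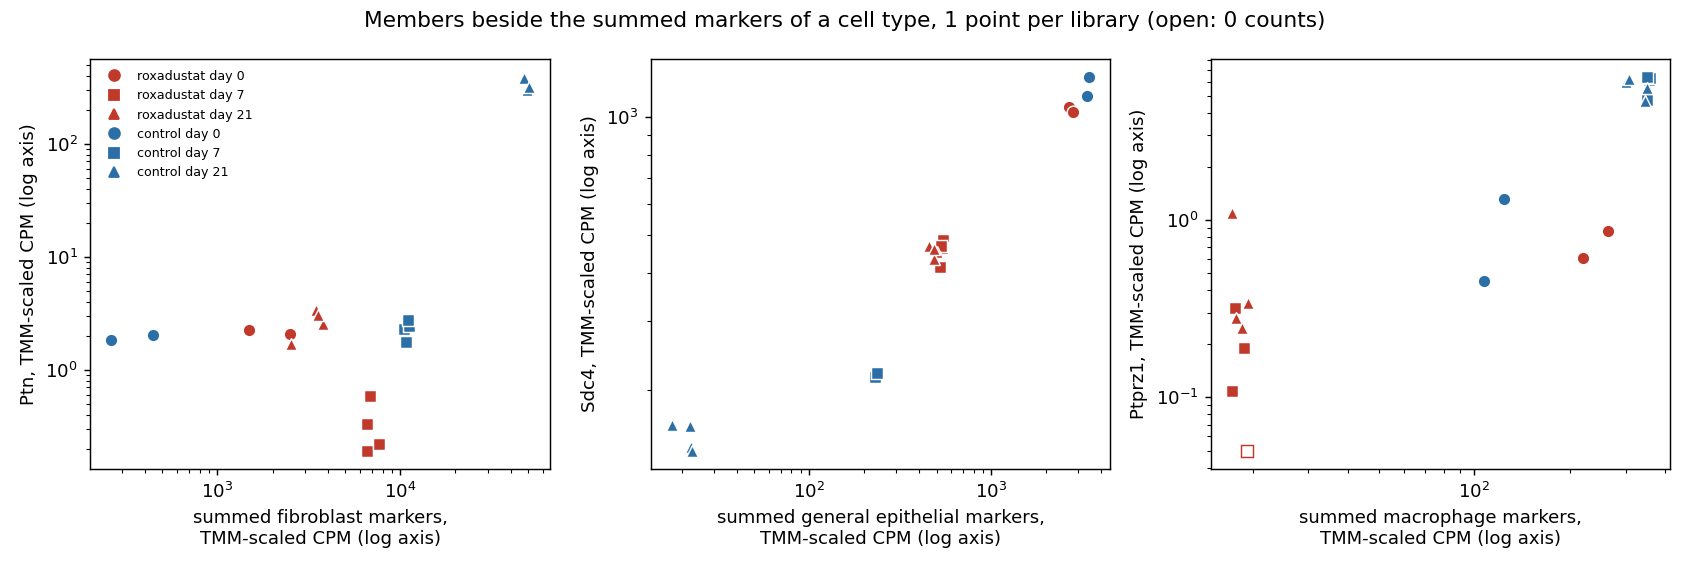
Level of Ptn, Sdc4 and Ptprz1 (vertical, TMM-scaled CPM, log axes) against the summed level of 10 fibroblast, 10 general epithelial and 10 macrophage markers (horizontal, TMM-scaled CPM, log axes); each point is a library, red for roxadustat and blue for control, with day 0 as circles, day 7 as squares and day 21 as triangles, and the open square a library with 0 counts. The control libraries of day 21 lie apart at 301 to 387 CPM of Ptn and 47264 to 50521 CPM of fibroblast markers, and the libraries form groups, so no correlation is given.

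In culture the other 3 syndecans differed between roxadustat and control in the opposite direction to Sdc4. Sdc1 (ENSMUSG00000020592, chromosome 12, 8771323 to 8793715, plus strand), best known from epithelia and plasma cells, was scarce in fresh cells, with 10.1 and 12.8 CPM with roxadustat and 15.4 and 15.8 CPM in control libraries. This lower level passed the test (log2 -0.46 ± 0.11, adjusted p = 0.0121), a call lost without roxadustat replicate 1 (log2 -0.30, adjusted p = 0.290) and when the 4 fresh libraries were fitted alone (adjusted p = 0.353). It rose at day 7 relative to day 0 in both arms, 13.7-fold in roxadustat cells (log2 3.77 ± 0.10, adjusted p = 2.92e-23) and 12.2-fold in control cells (log2 3.61 ± 0.09, adjusted p = 2.26e-23). At day 7 it had 163, 152, 166 and 141 CPM with roxadustat and 185, 189, 197 and 193 CPM in control libraries. The groups did not overlap and the lower level in roxadustat cells was called (log2 -0.30 ± 0.06, adjusted p = 8.59e-05). At day 21 it had 85.6, 94.3, 94.7 and 92.0 CPM with roxadustat and 191, 186, 172 and 178 CPM in control libraries, 1.98-fold lower without overlap (log2 -0.99 ± 0.06; no test). Sdc1 fell at day 21 relative to day 7 in roxadustat cells (log2 -0.76 ± 0.06, adjusted p = 4.42e-11), and no change was detected in control cells (-0.07 ± 0.06, 95% interval -0.19 to 0.04).

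Sdc2 (ENSMUSG00000022261, chromosome 15, 32920723 to 33034935, plus strand), the syndecan typical of mesenchymal cells, varied least. It averaged 135 ± 11.9 CPM with roxadustat and 146 ± 17.4 CPM in the controls at day 0 (SD, n = 2 each), with overlap and a log2 difference of -0.11 ± 0.08 (95% interval -0.28 to 0.05). At day 7 it had 189, 183, 188 and 173 CPM with roxadustat and 255, 254, 250.3 and 248 CPM in control libraries, a lower level without overlap (log2 -0.46 ± 0.06, adjusted p = 1.03e-07). At day 21 it averaged 138 ± 7.29 CPM with roxadustat and 243 ± 12.7 CPM in control cells (SD, n = 4 each), again without overlap (log2 -0.81 ± 0.06; no test). In control cells it rose at day 7 relative to day 0 (log2 0.79 ± 0.07, adjusted p = 9.20e-11) and no change was detected at day 21 relative to day 7 (-0.05 ± 0.06). In roxadustat cells the rise at day 7 was smaller (0.44 ± 0.07, adjusted p = 3.32e-06), the difference between the roxadustat effects at day 7 and day 0 being -0.35 ± 0.10 (adjusted p = 0.00865). That difference was not called without control replicate 1 or without roxadustat replicate 2 of day 0 (adjusted p = 0.107 and 0.104). Sdc2 then fell at day 21 in roxadustat cells (-0.40 ± 0.06, adjusted p = 1.03e-06).

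Sdc3 (ENSMUSG00000025743, chromosome 4, 130792537 to 130826319, plus strand), known mainly from the nervous system, was nearly silent in fresh cells and rose through culture in both arms. Fresh libraries had 2.85 and 3.04 CPM with roxadustat and 3.12 and 2.63 CPM in control cells, with no detectable difference (log2 0.03 ± 0.32, 95% interval -0.64 to 0.71). At day 7 relative to day 0 it was 10.9-fold higher in roxadustat and 16.3-fold higher in control cells (log2 3.45 ± 0.21 and 4.03 ± 0.21, adjusted p = 2.21e-12 and 7.13e-14). Day 7 libraries had 29.9, 31.0, 35.8 and 31.9 CPM with roxadustat and 47.1, 49.1, 46.6 and 45.7 CPM in control culture. The roxadustat libraries were all lower (log2 -0.55 ± 0.11, adjusted p = 0.000251). At day 21 the values were 52.6, 39.1, 42.0 and 47.3 CPM with roxadustat and 63.7, 61.5, 91.0 and 85.4 CPM in control libraries. Control replicates 1 and 2 lay below replicates 3 and 4, and the log2 difference, -0.73 ± 0.11 over all libraries (no test), was -0.47 against the pair of replicates 1 and 2 and -0.96 against the other pair. Of the exon bases of Sdc3, 7.73% overlap genes on the other strand (Gm12970 and Gm26716), and because the libraries carry no strand, reads there cannot be told apart.

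The make-up of syndecan transcripts, compared per kilobase of exon, thus differed between the arms in culture. Sdc4 made up 90.8 ± 0.958% of the summed syndecan level in roxadustat and 91.1 ± 0.234% in control cells at day 0 (SD, n = 2 each). At day 7 its share was 64.6 ± 0.691% in roxadustat and 39.9 ± 0.380% in control cells, and at day 21 it was 71.5 ± 0.885% and 31.6 ± 1.24% (SD, n = 4 each). In culture no roxadustat library came below 63.9% and no control library above 40.4%. The share of Sdc2 was 15.8 ± 0.745% in roxadustat and 36.5 ± 0.410% in control cells at day 21, that of Sdc1 9.68 ± 0.449% and 25.2 ± 0.352%, and that of Sdc3 3.04 ± 0.440% and 6.72 ± 1.61%. Control cells at day 21 were thereby the only one of the 6 groups in which Sdc2 stood above Sdc4 per kilobase (68.9 ± 3.60 against 59.7 ± 4.83 CPM per kb). The summed syndecan level was 249 ± 6.45 CPM per kb in roxadustat and 189 ± 8.08 CPM per kb in control cells at day 21, against 454 ± 4.80 and 517 ± 42.1 CPM per kb at day 0.

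**Figure D3:**
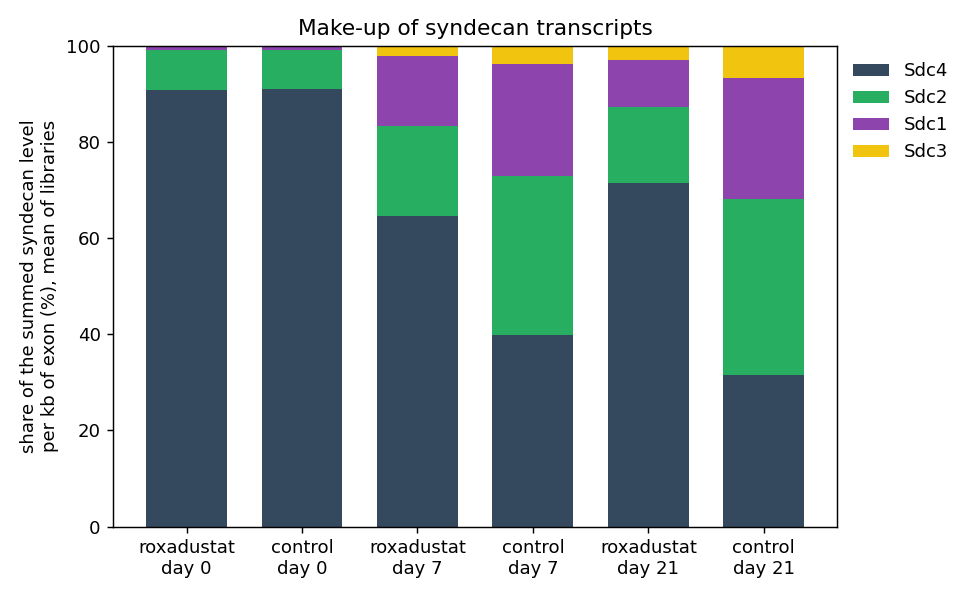
Mean share (%) of each syndecan in the summed syndecan level per kilobase of exon, in 6 bars with roxadustat left of control at days 0, 7 and 21 (n = 2 libraries a group at day 0 and 4 later). The dark Sdc4 segment fills 90.8% and 91.1% of the day 0 bars and 71.5% of the roxadustat and 31.6% of the control bar at day 21.

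Ptprz1 (ENSMUSG00000068748, chromosome 6, 22875502 to 23052916, plus strand), the phosphatase receptor of both growth factors, was rare in every group and nearly absent from roxadustat cultures. It reached 10 counts in every library of a group only in control cells at days 7 and 21. All values of Ptprz1 are therefore given as a description with no test. At day 7 the roxadustat libraries had 0, 4, 2 and 7 counts (0, 0.189, 0.109 and 0.317 CPM), against 73, 111, 117 and 119 counts (4.72, 6.19, 6.33 and 6.39 CPM) in the control libraries. The groups lay far apart, with a log2 difference of -5.17 ± 0.36 that was -5.79 without roxadustat replicate 4. At day 21 the roxadustat libraries had 0.340, 0.278, 1.09 and 0.246 CPM and the control libraries 4.67, 5.58, 5.99 and 6.25 CPM, again without overlap (log2 -3.72 ± 0.33; no test). In fresh cells the values were 0.861 and 0.609 CPM with roxadustat and 0.454 and 1.32 CPM in control libraries, which overlapped (log2 -0.25 ± 0.57). With 7 to 20 counts a library, the interval of -1.42 to 0.92 shows how little the depth could resolve there.

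At day 7 relative to day 0, Ptprz1 was lower in roxadustat cells (log2 -2.18 ± 0.64, no test). This difference was -2.81 without roxadustat replicate 4 of day 7 and -1.88 without roxadustat replicate 1 of day 0. In control cells Ptprz1 was higher at day 7 than at day 0 (log2 2.74 ± 0.37, and 3.70 without control replicate 2 of day 0, no test). In roxadustat cells the day 21 mean lay above that of day 7, with overlapping libraries (log2 1.37 ± 0.59, no test). That difference was 1.99 without roxadustat replicate 4 of day 7 and 0.82 without replicate 3 of day 21. Macrophage markers moved with Ptprz1 in culture. Their sum over 10 genes was 17.2 to 19.2 CPM with roxadustat and 350.1 to 357 CPM in control libraries at day 7, and 17.2 to 19.3 and 300.1 to 351 CPM at day 21. At day 0 the order was the other way, with 219.9 to 264 CPM with roxadustat and 107 to 124 CPM in control libraries. All 10 were called lower in roxadustat cells at day 7, beside 23.6% of all genes. Among them lysozyme 2 (Lyz2) was at 5.74 to 6.29 CPM with roxadustat and 239 to 244 CPM in control libraries. None was at 0 in any group, and the part of macrophages in the level of Ptprz1 was not tested.

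**Figure D4:**
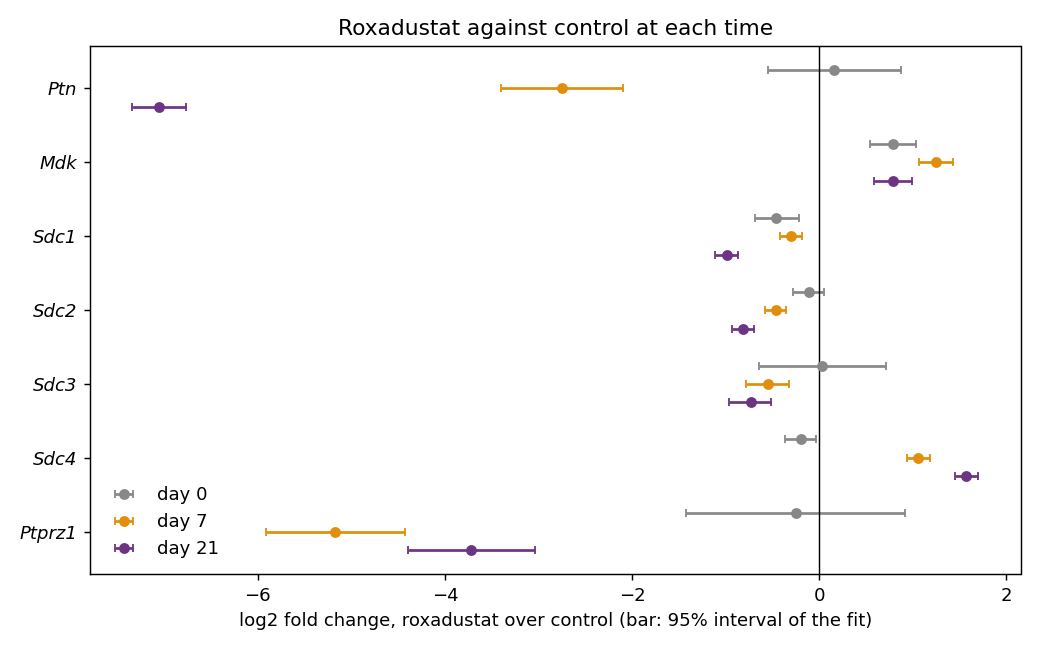
Log2 fold change of roxadustat over control (horizontal) for the 7 genes at day 0 (grey), day 7 (orange) and day 21 (purple); points are estimates of the edgeR fit and bars their 95% intervals. Mdk lies right of 0 at every time, Sdc4 moves to 1.57 at day 21, and Ptn lies at -7.06.

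Ptn and, because of its low counts outside control culture, Ptprz1 are left out of each count of tests over the family. Roxadustat against control gave 1 higher (Mdk) and 1 lower call (Sdc1) among 5 genes at day 0, where 2.73% of the 18731 tested genes were called higher and 4.11% lower. At day 7 it gave 2 higher (Mdk and Sdc4) and 3 lower calls (Sdc1, Sdc2 and Sdc3), beside 24.1% higher and 23.6% lower of all genes. At day 21, where nothing is tested, 1 of the 5 genes (Sdc4) was at least 2-fold higher without overlap, beside 14.6% of all genes. Sdc1, just under 2-fold, Sdc2 and Sdc3 did not reach 2-fold lower, which 12.1% of all genes did without overlap. Ptn and Ptprz1 did reach it, but neither is set beside that share. Ptn led to the choice of the family, and Ptprz1 reached 10 counts in every library of a group only in control culture.

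At day 7 relative to day 0, roxadustat cells had 3 higher and 1 lower of the 5 genes beside 37.1% and 37.6% of all genes. Control cells had 3 higher and 2 lower beside 37.0% and 39.5%. At day 21 relative to day 7, roxadustat cells had 1 higher and 3 lower genes beside 28.6% and 32.9%, and control cells had 1 higher (Sdc3) and 2 lower (Mdk and Sdc4) beside 34.5% and 34.3%. The roxadustat effect at day 7 exceeded that at day 0 for 2 genes (Mdk and Sdc4) and was below it for 1 (Sdc2), beside 15.5% and 13.4% of all genes. For Sdc1 that difference was 0.16 ± 0.13 (adjusted p = 0.392) and for Sdc3 -0.58 ± 0.34 (adjusted p = 0.230), with an interval of -1.30 to 0.13; fitted with only the groups compared, that of Sdc3 was called at -0.60 (adjusted p = 0.0281).

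Across the 6 groups, 21 of the 35 neighbouring pairs in the order of group means did not overlap. The groups were ordered by these same values and no such count was made over all genes, so it is a description only. Ptn spanned 1042-fold between control cells at day 21 and roxadustat cells at day 7, and its groups of 1.93 to 2.65 CPM (roxadustat day 21, control day 7 and both of day 0) stood close together. Mdk spanned 3.36-fold, with the roxadustat cells of day 0 and day 7 on top and overlapping. Sdc1 and Sdc2 were highest in control cells at days 7 and 21, which overlapped for both genes, and spanned 16.7-fold and 1.87-fold. Sdc3 spanned 26.2-fold with control cells of day 21 alone on top, and Sdc4 7.89-fold with both fresh groups on top. Ptprz1 had control cells at days 7 and 21 on top, overlapping each other, and the other 4 groups below with overlap between each neighbouring pair.

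Other receptors named for pleiotrophin and midkine were measured as a list of 12 genes, of which 11 passed the filter on low counts. Alk, the kinase first proposed as a pleiotrophin receptor, did not pass. At day 0, where edgeR called 2.73% of all genes higher and 4.11% lower, none of the 11 was called between roxadustat and control. DESeq2 and limma voom also called none of the 11, and 2 were lower at an unadjusted p under 0.05. At day 7, 1 was higher and 6 were lower (median log2 -0.29, against 0.03 over all genes, of which 24.1% were called higher and 23.6% lower). The higher one was neuropilin 1 (Nrp1), at 1073 ± 49.5 CPM with roxadustat and 706 ± 13.4 CPM in control cells (adjusted p = 5.43e-10). The proteoglycan Cspg4 was 8.73-fold lower, at 10.3 ± 1.43 CPM with roxadustat and 89.9 ± 3.12 CPM in control cells (adjusted p = 2.13e-14), and nucleolin (Ncl) was lower at 164 ± 9.77 and 242 ± 16.7 CPM in the same order (adjusted p = 5.47e-06; SD, n = 4 each). Cspg4 is also a pericyte marker, and the 9 pericyte and smooth muscle markers summed to 3055 to 3122 CPM with roxadustat and 8847 to 9223 CPM in control libraries at day 7.

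At day 21 the endocytic receptor Lrp1 was lower, at 1237 ± 206 CPM with roxadustat and 5727 ± 1446 CPM in control cells (log2 -2.21 ± 0.24; no test), with the same direction as Ptn. It averaged 4483 CPM in control replicates 1 and 2 and 6970.5 CPM in replicates 3 and 4. Integrin alpha 6 (Itga6) was higher, at 94.6 ± 3.28 and 21.6 ± 1.66 CPM in the same order (SD, n = 4 each). Of the 11 receptors, 4 were at least 2-fold higher and 3 lower without overlap, beside 14.6% and 12.1% of all genes. Lrp1 also rose with time in culture in both arms, in control cells by 4.15 ± 0.36 at day 7 relative to day 0 and by a further 3.41 ± 0.25 at day 21 (log2, adjusted p = 3.19e-08 and 6.41e-09). In roxadustat cells it rose by 3.61 ± 0.35 and by 1.25 ± 0.23 at the same steps (adjusted p = 1.25e-07 and 0.000242).

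Glypicans, the heparan sulfate proteoglycans anchored by lipid, were all 6 measured. In fresh cells, where 2.73% of all genes were called higher and 4.11% lower, Gpc1 alone was called. It was lower in roxadustat cells (17.7 ± 2.13 CPM against 31.4 ± 4.42 CPM in control cells, SD, n = 2 each, adjusted p = 5.91e-06). That call was lost when the 4 fresh libraries were fitted alone (adjusted p = 0.132), as was every day 0 call of the 6 lists. At day 7 Gpc1 was again lower and Gpc6 was among 2 called higher, beside 23.6% lower and 24.1% higher of all genes. Gpc6 was at 103 ± 13.3 CPM with roxadustat and 47.8 ± 3.01 CPM in control cells (SD, n = 4 each, adjusted p = 4.60e-08). At day 21 Gpc4 was lower at 107 ± 7.37 CPM with roxadustat and 308 ± 61.1 CPM in control cells (log2 -1.52 ± 0.11; no test), where control replicates 1 and 2 averaged 255 CPM and replicates 3 and 4 360.4 CPM. Gpc3 fell on culture in both arms, to 0.156 ± 0.0864 CPM with roxadustat and 0.276 ± 0.139 CPM in the controls at day 7, against 36.2 ± 7.03 and 29.9 ± 1.72 CPM at day 0 (adjusted p = 2.55e-21 and 2.78e-20).

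The enzymes that build and edit heparan sulfate, the chain on which both growth factors rest, formed a list of 31 genes with 27 tested. At day 0, 2 were higher and 0 lower in roxadustat cells by edgeR (4 and 2 at an unadjusted p under 0.05, 3 and 1 by DESeq2, 2 and 0 by limma voom), at day 7 7 were higher and 8 lower, and at day 21 5 were at least 2-fold higher and 4 lower without overlap. The day 7 and day 21 shares of the 27 lie near those of all genes, 24.1% and 23.6% at day 7 and 14.6% and 12.1% at day 21. At day 0, 2.73% of all genes were called higher and 4.11% lower. Heparanase (Hpse), which cuts the chains, was higher at day 7 at 14.2 ± 0.759 CPM with roxadustat and 5.10 ± 0.476 CPM in control cells (adjusted p = 4.03e-12), and the 2-O-sulfotransferase Hs2st1 was lower at 96.6 ± 5.49 and 159 ± 4.23 CPM in the same order (adjusted p = 1.05e-12; SD, n = 4 each). The largest differences at day 21 concerned sulfate at the 6-O position. Sulf1, which removes it outside the cell, was at 78.0 ± 2.46 CPM with roxadustat and 607 ± 35.4 CPM in control cells. Hs6st2, which adds it, was at 84.1 ± 4.30 CPM with roxadustat and 471 ± 28.8 CPM in control cells (SD, n = 4 each; no test). At day 21 relative to day 7 both genes fell in roxadustat cells (log2 -1.34 ± 0.11 and -1.08 ± 0.06) and rose in control cells (1.65 ± 0.10 and 1.35 ± 0.06), all called.

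Genes of chondroitin sulfate synthesis, the chain carried by Ptprz1 and in part by syndecans, were lower more often than higher in roxadustat culture. Of 16 genes, 2 were higher and 10 lower at day 7 (median log2 -0.42), beside 24.1% and 23.6% of all genes, and 2 were at least 2-fold higher and 7 lower without overlap at day 21 (median -0.84, against 0.00 over all genes), beside 14.6% and 12.1%. The chain-building synthase Chsy3 was at 6.61 ± 0.519 CPM with roxadustat and 14.2 ± 0.965 CPM in the controls at day 7 (adjusted p = 7.58e-10), and Ust, a uronyl 2-O-sulfotransferase, at 14.2 ± 1.14 and 30.2 ± 2.60 CPM in the same order (adjusted p = 7.40e-13). At day 21 the chain-starting enzyme Csgalnact1 was at 35.3 ± 2.12 CPM with roxadustat and 185 ± 4.84 CPM in control cells. The 4-O-sulfotransferase Chst12 was at 11.2 ± 2.27 and 54.7 ± 4.59 CPM in the same order (SD, n = 4 each, no test). Chst13 went the other way without overlap, at 6.93 ± 0.438 CPM with roxadustat and 1.30 ± 0.117 CPM in control cells, 5.29-fold higher (no test). In fresh cells 2 genes were higher and 1 lower, beside 2.73% and 4.11% of all genes. The dermatan sulfate epimerase Dse was at 7.23 ± 0.205 CPM with roxadustat and 3.27 ± 0.956 CPM in control cells (SD, n = 2 each, adjusted p = 1.93e-05, and 0.176 with the fresh libraries fitted alone). The fibroblast and, at day 7, pericyte marker sums given above were also lower in roxadustat than in control culture, like the lower genes named here. At day 21 relative to day 7 in roxadustat cells, the fibroblast sum fell while Chsy3 rose to 14.2 ± 1.20 CPM. The part of these cell types was not tested.

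Proteases that shed syndecans and partners of their cytoplasmic tails, 15 genes, gave 2 higher and 2 lower calls at day 0, and 5 higher and 7 lower at day 7, beside 2.73% and 4.11% of all genes at day 0 and 24.1% and 23.6% at day 7. At day 21, 4 were at least 2-fold higher and 4 lower without overlap, beside 14.6% and 12.1%. Mmp14, a membrane metalloprotease, was at 276 ± 21.6 CPM with roxadustat and 531 ± 12.2 CPM in the controls at day 7 (adjusted p = 5.20e-13) and at 179 ± 10.4 and 1148 ± 13.9 CPM at day 21. Mmp9 went the other way, at 11.1 ± 0.793 CPM with roxadustat and 3.00 ± 0.196 CPM in the controls at day 7 (adjusted p = 3.62e-12). The inhibitor Timp3 was called lower in fresh roxadustat cells (1573 ± 139 CPM against 2389 ± 848 CPM in control cells, SD, n = 2 each, adjusted p = 0.00648). That call was lost with the fresh libraries fitted alone (0.423), without roxadustat replicate 1 (0.115) and without control replicate 2 (0.237). Timp3 was higher at day 7 (1294 ± 80.2 CPM with roxadustat against 619 ± 10.6 CPM in control cells, SD, n = 4 each, adjusted p = 3.08e-09). Prkca, the kinase bound by Sdc4, differed little at day 7 (81.5 CPM with roxadustat and 73.8 CPM in control cells on average, adjusted p = 0.0502). At day 21 it averaged 160.1 CPM with roxadustat and 45.1 CPM in control cells without overlap, the direction of Sdc4 itself. Syntenin (Sdcbp), the adaptor that binds syndecan tails, was lower at day 7, at 302 CPM with roxadustat and 390.3 CPM in control cells on average (log2 -0.37 ± 0.06, adjusted p = 1.43e-05); Prkca and Sdcbp lie outside the rule for named genes at these times and were picked with their values in view.

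Relatives, ligands and substrates of Ptprz1, 10 genes with 9 tested, did not share its difference at day 7, where 3 were higher and 2 lower (median log2 -0.01), beside 24.1% and 23.6% of all genes. Its close relative Ptprg was at 165 ± 15.3 CPM with roxadustat and 125 ± 6.27 CPM in control cells (adjusted p = 5.23e-06; SD, n = 4 each), and the kinase Fyn was lower (log2 -0.53 ± 0.06, adjusted p = 8.49e-09). The matrix ligand tenascin C (Tnc) was called higher in fresh roxadustat cells, at 27.8 ± 21.2 CPM against 6.46 ± 1.42 CPM in control cells (SD, n = 2 each, adjusted p = 0.00249), with a wide spread between its replicates. Its log2 fold change of 2.09 ± 0.37 was 0.99 without roxadustat replicate 2 and 2.71 without roxadustat replicate 1, and it was not called with the fresh libraries fitted alone (adjusted p = 0.402). It rose to 3411 ± 154 CPM with roxadustat and 3497 ± 106 CPM in the controls at day 7 (SD, n = 4 each), both called relative to day 0. At day 21, 0 of the 9 genes were at least 2-fold higher and 1 was lower without overlap, beside 14.6% and 12.1% of all genes.

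**Figure D5:**
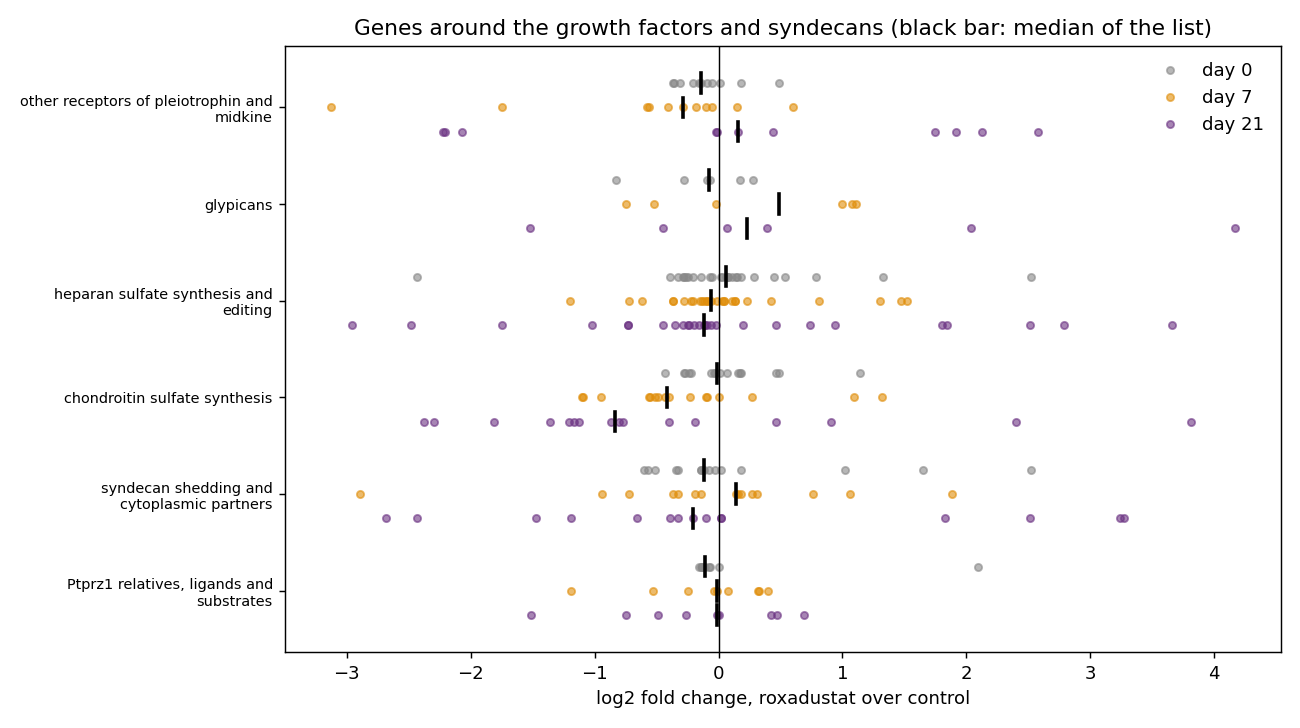
Log2 fold change of roxadustat over control (horizontal) for each tested gene of the 6 lists, at day 0 (grey), day 7 (orange) and day 21 (purple); black bars are list medians. The chondroitin sulfate list has its median at -0.42 at day 7 and -0.84 at day 21, and the other lists spread to both sides of 0.

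The genes most like each of the 7 in level over the 20 libraries were found by Pearson's r of log2 CPM among 13150 protein-coding genes. The libraries share groups, depth and scaling, so r is a description. For Ptn they were Plin4 (r = 0.981), Ror1 and Arap1, for Mdk Mgea5 (0.964), Aldoa and Narf, and for Ptprz1 Cd84 (0.951), Eea1 and Pik3cd. For the syndecans they were Lbh (0.998), Tmeff1 and Golim4 with Sdc1, Ppic (0.978), Arl1 and Crip1 with Sdc2, Rbfox2 (0.995), Pcdh7 and Gata6 with Sdc3, and Enpp5 (0.992), Itgb6 and Tmem139 with Sdc4.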

How the data were processed

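Each library's file held whole-number counts per Ensembl gene, deposited by the authors without normalization. The submitters' processing notes name the mm10 genome and the tools featureCounts 1.5.0-p1, STAR 2.5.2a and bcl2fastq with no version, and per the labels' protocols the mRNA libraries were not stranded. The annotation release is not given in the sources used here. Symbols and coordinates came from GENCODE M21 (GRCm38), which matched 47310 of 47729 identifiers. Groups were taken from the treatment and time labels.

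In R 4.3.3, all 20 libraries were fitted in 1 model of 6 groups with edgeR 4.0.16 (filterByExpr, 18731 genes kept, TMM, robust quasi-likelihood F test, Benjamini-Hochberg adjustment over all tested genes, threshold 0.05). Each SE was taken as the size of the log2 estimate over the root of its F, and intervals are 95%. Levels are TMM-scaled CPM, divided by exon length where genes are compared. Intervals cover the fitted spread of these libraries. Of the 7 genes, 7 passed the filter, and Ptprz1 reached 10 counts in every library of a group only in control culture. The members and the lists were chosen with earlier results of these data known. Named genes were, for each list and comparison, up to 3 with the largest log2 fold change among those called (at day 21, at least 2-fold apart without overlap), without overlap and reaching 5 CPM in either group, and the 3 genes most like each member with a mean of at least 1 CPM; the text gives a part of them. Other scalings, filters, DESeq2 1.42.0, limma 3.58.1 voom, a replicate block, only the groups compared, a threshold of 0.01 and leaving out each library were tried. The steps were tested on simulated data. No 2 replicates of a group agreed within counting noise (chi-square over degrees of freedom of 1.94 to 35.2).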

Additional observations from a re-analysis of the deposited data

Results flagged for a closer look

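Ptprz1 in control replicate 1 of day 7 was at 4.72 CPM, below the other control libraries of that time at 6.19 to 6.39 CPM, and in roxadustat replicate 3 of day 21 it was at 1.09 CPM, from 11 counts, above the other roxadustat libraries at 0.246 to 0.340 CPM. Both were far from the rest of their group by Dixon's test at its 95% level. Of the 28 groups of 4 libraries examined, chance flags about 1 in 20.

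The roxadustat effect, from injection at day 0 and drug in culture at day 7, differed between these times for 3 genes. The test was of the difference itself (edgeR, adjusted p). On the log2 scale, day 7 minus day 0, it was 1.26 for Sdc4 (1.57e-10), -0.35 for Sdc2 (0.00865) and 0.46 for Mdk (0.0212). For Ptprz1 it was -4.92, a value given with no test, since the gene reached 10 counts in every library of a group only in control cells of days 7 and 21. Without control replicate 2 of day 0 it was -5.87.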

How the results depend on the processing

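In the counts of members in this section Ptprz1 is included, and Ptn as well at day 21, though the counts given above leave both out. The figures here therefore describe all members as run and not the stability of the counts above. Of 730 alternatives for the tested fold changes of members, 690 kept direction and side of the threshold, 18 lost the call, 4 gained it and 18 changed sign. For roxadustat against control at day 0 the count of 2 members called became 1 at a threshold of 0.01 and 0 when only the groups compared were fitted (1 higher and 1 lower at an unadjusted p under 0.05; DESeq2 and limma voom on all libraries called 1 and 1), and 1 to 2 when each library was left out in turn, with 1 without roxadustat replicate 1; the cause was not tested. Over all genes that comparison gave 1280 calls, 610 at 0.01, 23 with only the groups compared and 573 without roxadustat replicate 1, and over the 6 lists 11, 0 with only the groups compared and 6 without that library. The change of the roxadustat effect was called for 2 to 4 members when each library was left out, with 2 without control replicate 1 or roxadustat replicate 2 of day 0, and over the lists for 36 genes, 22 at 0.01 and 23 without roxadustat replicate 2 of day 0. With library size alone, 5 members were called at day 21 against day 7 in control cells (3 with TMM).

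No value that changed sign had been called. Leaving out each library gave, for roxadustat against control at day 0, -0.24 to 0.01 for Sdc2, -0.09 to 0.15 for Sdc3 and -0.83 to 0.69 for Ptprz1, -0.27 to 0.16 for Mdk at day 7 against day 0 in roxadustat cells, -0.18 to 0.00 for Ptprz1 at day 21 against day 7 in control cells, -0.06 to 0.02 for Sdc4 at day 21 against day 7 in roxadustat cells, and -0.01 to 0.33 for Sdc1 in the change of the roxadustat effect. Other scalings gave 0.35 (library size, adjusted p = 0.00229) and 0.00 (upper quartile) for that change of Mdk. For that of Sdc4 they gave 0.04 (DESeq2's size factors), 0.07 (library size) and 0.08 (upper quartile), a filter at a mean of 1 CPM gave 0.05, DESeq2 0.04 and only the groups compared 0.06.

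Library size alone moved the median of all genes to 0.34 at day 21 for roxadustat against control, to 0.46 in roxadustat and 0.40 in control cells for day 7 against day 0, and to -0.19 for day 21 against day 7 in control cells. It moved the share of higher calls to 57.2% at day 0 (39.9% with TMM) and to 72.5% at day 21 (47.7%). The day 21 differences became 1.14 for Mdk, -0.64 for Sdc1, -0.46 for Sdc2, -0.38 for Sdc3 and 1.92 for Sdc4. Same-numbered replicates of the 2 arms did not deviate together (r of -0.08 to 0.07 at day 7 and -0.38 to 0.18 at day 21), so the numbers do not pair them. With the replicate block the counts of members stayed at 2, 6 and 3 at days 0, 7 and 21. That of day 7 holds Ptprz1, and that of day 21 holds Ptn and Ptprz1. The split of the day 21 control libraries into pairs was chosen after seeing the data. Low counts limit Ptprz1 and Ptn outside control culture.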
